A study of Mus musculus with 24 samples.

Results

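Differential OL enrichment asks whether the share of a transcript that sits on oligodendrocyte (OL) ribosomes differs between injured and intact spinal cord. It is the log2 ratio of OL-bound to total RNA on day 10 after spinal cord injury (SCI) minus the same ratio in naive cord, and it was read from 12 of the 24 libraries of the series. By the labels all mice were female. They were tamoxifen-treated and carried a tamoxifen-inducible Cre driven by the promoter of a myelin gene, with an HA-tagged ribosomal protein allele (rpl22HA) that Cre switches on. Each of the 2 groups compared had 3 pools of thoracic cord tissue, each from a pair of mice, and each pool gave 1 OL library (RNA precipitated with its HA-tagged ribosomes) and 1 total library (the input lysate). The dpi 10 group had a T9 contusion of 50 kdyn with the IH impactor 10 days before collection, and the naive group had no injury. The labels state 10 to 12 weeks of age at injury, and the study's methods state a younger range, so the age is uncertain. By the study's methods, naive tissue was collected on the same day as the dpi 42 tissue, so age at collection and time since tamoxifen also differ between the groups and cannot be told apart from the injury. This Cre line is known to be active in Schwann cells as well as in OLs, so HA-tagged ribosomes of nerve root or invading Schwann cells can enter the OL libraries.

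OLs wrap axons of the central nervous system in myelin and support them metabolically. After contusion, OLs die at the lesion and later in spared white matter, while macrophages, microglia and fibroblasts fill the lesion and Schwann cells can enter it from the roots. A ratio of OL to total RNA is high for transcripts made mainly by OLs, such as those of myelin proteins, and low for transcripts made mainly by other cells, so it moves when OL RNA changes, when the rest of the tissue changes, or both. In bulk tissue, fewer cells of a type and less RNA per cell cannot be told apart.

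The libraries held 30694911 to 31954139 counts on genes for OL and 27135366 to 28552424 for total RNA. Myelin protein transcripts marked the OL libraries throughout, with a sum over 20 genes of 136900 to 183800 CPM (counts over the library total times its TMM factor, which were 0.742 to 0.856 for OL and 1.1 to 1.26 for total libraries) in naive OL and 164200 to 167400 in dpi 10 OL, against 25450 to 31460 in naive total and 27240 to 28100 in dpi 10 total RNA. One library stood apart. In naive OL pool 3, 16 astrocyte markers summed to 20400 CPM against 3447 and 3276 in naive OL pools 1 and 2, and 20 fibroblast and scar matrix genes to 3761 against 700.7 and 653.3. The 15 Schwann cell markers summed to 1437 CPM in the OL and 447.5 CPM in the total library of naive pool 3, against 802 and 820 CPM in OL and 217 and 208 CPM in total RNA of naive pools 1 and 2. On dpi 10, OL pool 2 had an astrocyte sum of 9680 CPM against 3611 and 4257 in the other pools. Some results that rest on naive pool 3 are given with and without it. Others, such as the median of the sodium pump and Fxyd list, are given with it only. Outside the 12 libraries, dpi 2 pool 2 went against the label of female mice, with 2414 counts on Y-linked genes in OL and 2604 in total RNA, against 0 to 13 in each other library of the series. That pool enters the fit across 24 libraries through the estimate of the spread, and without it 250 genes gained and 232 lost OL share, against 236 and 227 with it.

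Of 17167 genes tested, 236 gained OL share by dpi 10 (1.37%) and 227 lost it (1.32%), at an adjusted p (q, edgeR's quasi-likelihood test with Benjamini-Hochberg adjustment) under 0.05 and a log2 difference past 1. The differences of the genes that gained had a median of 1.36 and reached 7.92, and those of the genes that lost had a median of -1.46 and reached -6.78. The 3 dpi 10 pool ratios all lay above the 3 naive ones in 230 of the 236 genes (20.5% of all tested genes), and all below in 226 of the 227 (15.6% of all), which restates the values that chose the genes. A further 741 genes passed q with a difference within 1, and at any size 4.08% of all genes had a higher and 2.93% a lower OL share at q under 0.05. The split depends on how OL libraries are set against total libraries. With TMM factors computed against a total RNA library, the median over all genes moved from 0.0928 to -0.132, and 112 genes gained while 438 lost, a share of 20.4% higher calls against 51.0%. The 227 genes that lost were then all still called, and 112 of the 236 that gained were. The change of factors shifts the differences of all genes down by nearly the same amount. The kept counts follow from that shift and do not say whether losses or gains are firmer.

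The ratio in naive cord is part of the difference that chose the genes, so the counts of enriched and depleted genes among them describe the selection and test nothing. In naive tissue, 3669 genes were OL enriched (21.4%) and 4840 OL depleted (28.2%) past 0.5 on the log2 scale. On dpi 10 the numbers were 3595 (20.9%) and 4470 (26.0%). Of the 236 genes that gained, 210 were depleted in naive OLs and 138 still were on dpi 10, while 35 were enriched on dpi 10 and 9 went from depleted to enriched. Of the 227 that lost, 160 were enriched in naive OLs, 107 were depleted on dpi 10, and 40 went from enriched to depleted. In properties that the calls did not use, the median GC content was 54.0% for genes that gained, 50.5% for genes that lost and 49.9% for all tested genes, and the median exon length was 4432, 4831 and 4124 bases. With an offset for length and GC content in each library, 201 genes gained and 249 lost.

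The change in each RNA fraction was tested separately, as dpi 10 against naive. The difference in OL share is the OL change less the total change, so for the genes that gained or lost these values are a description. Across all genes, OL RNA rose past 1 for 1170 (6.82%) and fell for 217 (1.26%), and total RNA rose for 1580 (9.20%) and fell for 527 (3.07%). Among genes that gained OL share, 89 rose in OL RNA, 44 fell in total RNA, and 105 passed neither test. A pair of genes did both, Strip2 among them. The median log2 change of the 236 genes was 0.70 in OL RNA and -0.62 in total RNA. Among genes that lost OL share, 185 rose in total RNA, 39 of them together with OL RNA, 7 fell in OL RNA and 36 passed neither test. The median log2 change of the 227 genes was 0.16 in OL RNA and 1.60 in total RNA, and 225 of the 227 had a total RNA change above 0. Without naive pool 3, 265 genes gained, 156 of them with a rise in OL RNA, and 195 lost, 150 of them with a rise in total RNA. These are partly other genes: 152 of the 236 that gained and 170 of the 227 that lost were still called.

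**Figure D1:**
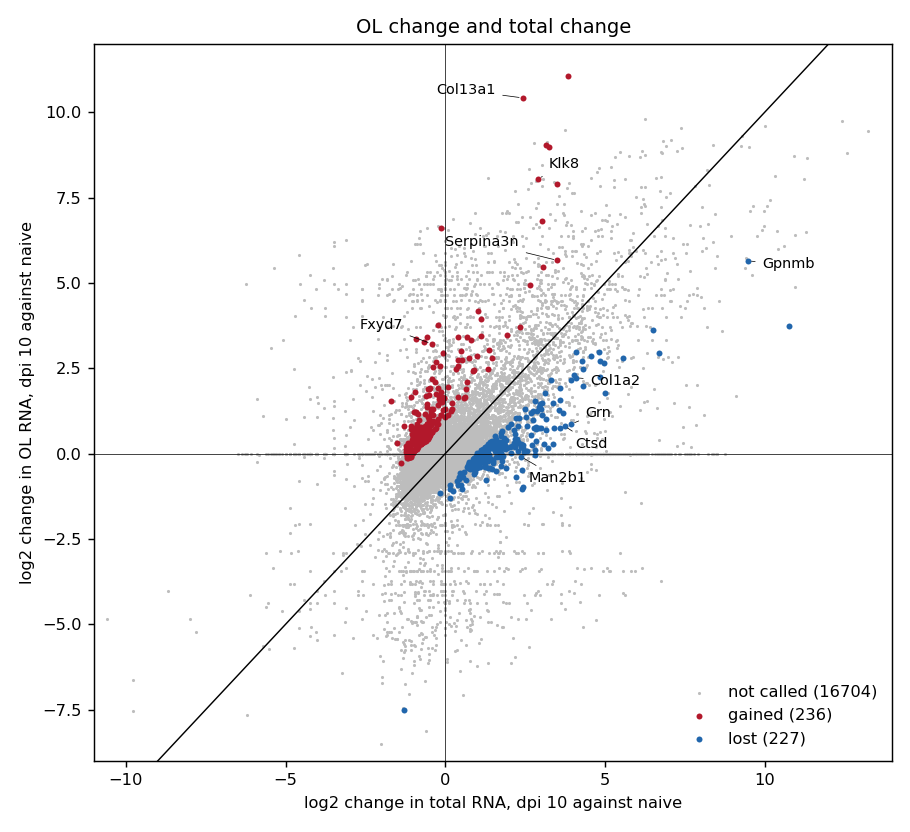
Log2 change in OL RNA (y axis) against log2 change in total RNA (x axis), dpi 10 against naive, for 17167 genes as fitted from 3 pools per group, with the line of equal change drawn. The 236 genes that gained OL share lie above the line, with 40 of them to the right of 0 on the x axis and a median total RNA change of -0.62, and the 227 that lost it lie below the line, 225 of them to the right of 0.

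The gain with the smallest p was that of Fxyd7, a small membrane protein that modulates the sodium pump (ENSMUSG00000036578, chr7:31042513-31051467, minus strand, GRCm38). Fxyd7 stood at 5.88, 6.18 and 6.43 CPM in naive OL and at 54.3, 57.3 and 60.6 CPM in dpi 10 OL, while total RNA held 67.6, 70.8 and 77.0 CPM in naive and 56.1, 51.2 and 52.3 CPM in dpi 10 tissue. The OL groups were far apart and did not overlap, and the total groups lay close to each other with dpi 10 the lower. The log2 difference was 3.65 ± 0.215 (SE, n = 3 pools per group, q = 2.2e-07). The ratio of OL to total RNA went from -3.54 in naive to 0.11 on dpi 10, on the log2 scale. Of the 13 tested genes of the sodium pump and Fxyd list, Fxyd7 was the called one (7.69% against 1.37% of all genes). The list's median was 0.23. The list summed to 3938, 4239 and 11570 CPM in naive OL pools 1 to 3, with pool 3 again apart.

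Klk8 and Serpina3n became transcripts of high OL share. Klk8 (chr7:43797577-43803826, plus strand) encodes neuropsin, a secreted serine protease. It stood at 0.798, 0.592 and 0 CPM in naive OL and at 140, 114 and 108 CPM on dpi 10, while total RNA held 1.97, 2.93 and 0.856 CPM and then 16.1, 11.7 and 15.3 CPM. Neither fraction overlapped between naive and dpi 10, and OL levels passed total levels in each dpi 10 pool. The difference was 5.20 ± 0.484 (q = 3.1e-05), with a rise of 8.05 in OL and 2.90 in total RNA on the log2 scale. Serpina3n (chr12:104406729-104414329, plus strand), a secreted inhibitor of serine proteases, stood at 86.4, 47.2 and 44.9 CPM in naive OL and 3239, 3022 and 2762 CPM in dpi 10 OL, with 62.2, 54.5 and 52.0 CPM and then 660, 674 and 588 CPM in total RNA. It was at a similar level in both fractions of naive cord, and on dpi 10 each OL library was above each total library. Its difference was 2.21 ± 0.216 (q = 4.4e-05). Of 7 tested Serpina3 genes, Serpina3c gained as well (28.6% gained, against 1.37% of all genes). Its naive OL libraries held 2, 0 and 0 counts and its dpi 10 OL libraries 70, 85 and 87, against 25 to 40 counts in dpi 10 total RNA, so its fitted fold has no firm size.

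Slc9a3r2 and Plvap gained OL share while their total RNA levels overlapped between naive and dpi 10. Slc9a3r2, a scaffold protein for ion transporters, stood at 15.3, 15.9 and 13.7 CPM in naive OL and at 101, 73.5 and 89.3 CPM on dpi 10, with total RNA at 65.6 to 72.3 and 56.9 to 67.3 CPM. The OL groups did not overlap, and the total groups did (difference 2.72 ± 0.203, q = 2.5e-06). Plvap, known as a component of endothelial fenestrae, stood at 0.504, 0.423 and 1.15 CPM in naive OL and at 8.39, 9.36 and 11 CPM on dpi 10, with overlapping total RNA levels of 12.1 to 14.9 and 9.34 to 14.4 CPM. Its difference was 4.09 ± 0.381 (q = 3.1e-05). The summed level of 15 endothelial and pericyte markers in OL libraries was 18.5 to 27.5 CPM in naive and 31.5 to 64.5 CPM on dpi 10, and in total RNA 228 to 297 and 417 to 520 CPM, with none of the markers at 0 throughout a group. The part of endothelial RNA in the Plvap value was not tested.

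Fos, an immediate early transcription factor, stood at 5.38, 3.09 and 2.45 CPM in naive OL and 31.5, 51.0 and 33.4 CPM on dpi 10 (difference 2.78 ± 0.281, q = 5.1e-05). Its total RNA was 12.1 to 15.1 CPM in naive and 17.7 to 24.5 CPM in dpi 10 tissue, so OL levels lay under total levels in naive and over them in dpi 10 pools. Mdga1, a cell surface protein that binds neuroligins, gained 2.98 ± 0.299 (q = 4.7e-05), and Flot1, a scaffold of membrane rafts, gained 1.25 ± 0.141 (q = 0.000128). Both were called enriched in OLs on dpi 10, with ratios of 1.04 and 0.79.

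**Figure D2:**
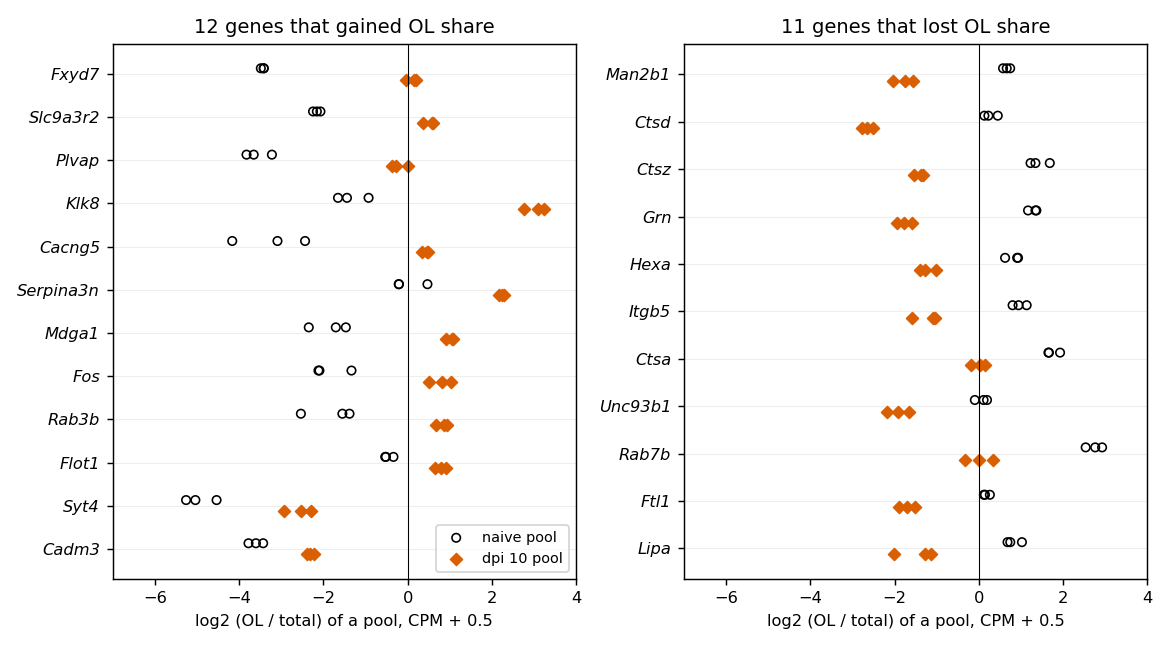
Log2 ratio of OL to total RNA (CPM plus 0.5) in each pool, for the 12 genes that gained and 11 of the 12 that lost OL share with the smallest p among genes whose pools did not overlap. Open circles are the 3 naive pools and diamonds the 3 dpi 10 pools. Klk8 moved from ratios of -1.65 to -0.93 to ratios of 2.77 to 3.23, and Ctsd from 0.13 to 0.45 to -2.77 to -2.51.

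Of 46 tested glutamate receptor and postsynaptic genes, 4 gained OL share (8.70% against 1.37% of all genes) and none lost it. Of the 46, 38 had a difference above 0 (56.8% of all genes did), with a median of 0.47 against 0.0928 over all genes. In OL RNA 2 of the 46 rose and 4 fell, with a median log2 change of -0.37, and in total RNA none rose and 12 fell, with a median of -0.85. Cacng5, an auxiliary subunit of AMPA receptors, stood at 1.64, 2.67 and 0.803 CPM in naive OL and at 20.1, 14.9 and 14.2 CPM on dpi 10, with total RNA at 16.6 to 22.9 and 10.6 to 14.4 CPM. The OL groups were apart in one direction and the total groups in the other (difference 4.00 ± 0.386, q = 4.2e-05). Nlgn2, a neuroligin of inhibitory synapses, stood at 51.1, 59.2 and 43.6 CPM in naive OL and at 111, 98.6 and 112 CPM on dpi 10, with total RNA at 213 to 238 and 156 to 162 CPM (difference 1.59 ± 0.194, q = 0.00023). Grm4, a metabotropic glutamate receptor, gained 1.82 ± 0.36 (q = 0.00697), with total RNA at 60.4 to 62.3 CPM in naive and 28.8 to 29.3 CPM in dpi 10 tissue.

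A list of 34 presynaptic and excitability genes was drawn up after their values had been seen, and its counts are a description: 11 gained, none lost, and all 34 differences were above 0, with a median of 0.74. In OL RNA 3 of the 34 rose and 3 fell, with a median log2 change of -0.26, and in total RNA 19 fell and none rose, with a median of -1.08. Rab3b, a GTPase of secretory vesicles, stood at 15.3, 12.6 and 5.55 CPM in naive OL and at 54.8, 50.8 and 46.2 CPM on dpi 10 (difference 2.69 ± 0.302, q = 0.000128), with total RNA at 34.5 to 40.6 and 26.3 to 30.0 CPM. Cacnb3, a subunit of voltage-gated calcium channels, stood at 12.4, 9.22 and 5.66 CPM in naive OL and at 32.4, 38.4 and 35.7 CPM on dpi 10 (difference 1.95 ± 0.26, q = 0.00042). The OL groups of both genes did not overlap. The vesicle protein Syt4 gained 2.44 ± 0.284 (q = 0.000177) and the adhesion molecule Cadm3 gained 1.29 ± 0.154 (q = 0.00021), both from and to a ratio well under 0. For Kcna2, Kcnab1, Adam23 and Jph3, total RNA fell by 1.38, 1.51, 1.17 and 1.20 on the log2 scale, and OL RNA changed by -0.28, 0.31, 0.30 and 0.15 without passing the test.

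Of 20 neuron markers, 9 fell in total RNA and 3 in OL RNA between naive and dpi 10. The 20 markers summed to 15430 to 16390 CPM in naive total RNA and 7241 to 7790 CPM on dpi 10, and to 992 to 1115 and 705 to 793 CPM in OL libraries, and none was at 0 throughout a group. Snap25, a synaptic membrane protein, stood at 3370 to 3533 CPM in naive total and 1408 to 1734 CPM in dpi 10 total RNA, and at 115 to 158 and 63.9 to 101 CPM in OL. Of the 20 markers, Eno2, the neuronal enolase, gained OL share (1.66 ± 0.215, q = 0.00036), which is 5% against 1.37% of all genes. The median of the list was 0.41. The part of the neuronal RNA level in the gains of synaptic genes was not tested. The 5 genes of both synaptic lists that rose in OL RNA were Cacng5, Rab3b, Cacnb3, Syt4 and Nlgn2, by 3.27, 2.18, 1.96, 1.89 and 1.07 on the log2 scale, while 7 fell.

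All 60 tested subunits of the respiratory chain had a difference above 0, against 56.8% of all genes, with a median of 0.56 against 0.0928. Of the 60, 22 had a higher OL share at q under 0.05 (4.08% of all genes did). Ndufb6, a subunit of complex I, was the member past 1 (1.09 ± 0.252, q = 0.0171), which is 1.67% against 1.37% of all genes. Their sum was 5062 to 5880 CPM in naive OL and 5269 to 5596 CPM in dpi 10 OL, which overlapped, and 7805 to 7906 CPM in naive and 5407 to 5768 CPM in dpi 10 total RNA, which did not. The call on Ndufb6 held in 2 of the 6 fits that left out 1 pool. Of 16 tested ATP synthase genes 15 were above 0, with a median of 0.42. Atp5mpl gained 1.02 (q = 0.0176, held in 2 of those 6 fits), which is 6.25% of the list against 1.37% of all genes. Mitochondrial ribosomal protein genes were above 0 in 74 of 77, with a median of 0.38, and Mrpl12 was the member with q under 0.05 (0.64 ± 0.153, q = 0.0209, held in 1 of the 6 fits). With the total RNA reference for TMM the medians of these 3 lists were 0.32, 0.18 and 0.14, against -0.132 over all genes.

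Cytosolic ribosomal protein genes lay on the other side. Their median was -0.19, 17 of 78 were above 0, none was called past 1, and 9 passed q under 0.05 with lower OL share (2.93% of all genes did), among them Rplp0 (-0.96 ± 0.117, q = 0.00023), Rpl10 (-0.74 ± 0.127, q = 0.00286) and Rps4x (-0.70 ± 0.134, q = 0.00565). The sum of the list was 7054 to 7561 CPM in naive OL and 8497 to 8988 CPM in dpi 10 OL, and 9834 to 10280 and 13980 to 14460 CPM in total RNA. Both fractions were apart between naive and dpi 10, with the wider gap in total RNA.

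**Figure D3:**
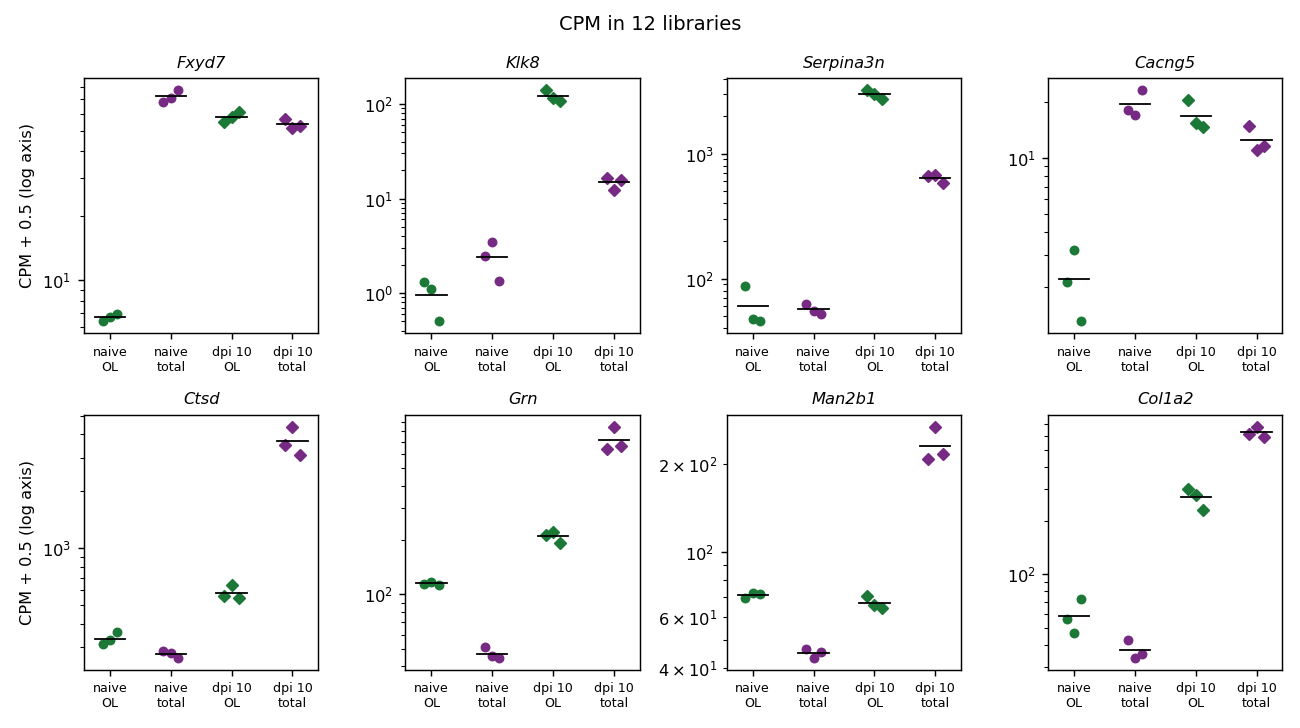
CPM plus 0.5 on a log axis for 8 genes in the 12 libraries. Each point is a library, circles are naive and diamonds dpi 10, and bars are means of 3. Fxyd7 and Cacng5 moved in OL, Klk8 and Serpina3n in both fractions with more in OL, and Ctsd, Grn, Man2b1 and Col1a2 most in total RNA.

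Several of the genes that lost OL share with the smallest p encode lysosomal proteins. Ctsd, cathepsin D, an aspartic protease of the lysosome (ENSMUSG00000007891, chr7:142375911-142388038, minus strand), stood at 313, 326 and 359 CPM in naive OL and at 558, 642 and 546 CPM in dpi 10 OL, while total RNA held 286, 278 and 263 CPM and then 3517, 4376 and 3108 CPM. OL levels did not overlap between naive and dpi 10, and the gap in total RNA was many times wider. The difference was -2.92 ± 0.176 (q = 2.2e-07). Man2b1, lysosomal alpha-mannosidase (chr8:85083270-85098282, plus strand), stood at 68.8, 72.0 and 71.3 CPM in naive OL and at 69.9, 65.4 and 63.9 CPM on dpi 10, and total RNA went from 45.9, 42.8 and 44.8 CPM to 208, 268 and 216 CPM. Its OL levels overlapped and its total levels did not (difference -2.46 ± 0.142, q = 2.2e-07). Grn, the progranulin gene, whose product regulates lysosomes, stood at 114, 117 and 112 CPM in naive OL and 212, 221 and 193 CPM on dpi 10, against 50.4, 44.9 and 43.9 CPM and then 636, 846 and 661 CPM in total RNA. Grn libraries of OL were above those of total RNA in naive cord and under them on dpi 10 (difference -3.07 ± 0.196, q = 3.7e-07).

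Total RNA rose past 1 for each of the 12 genes that lost with the smallest p. Ctsz, Hexa, Ctsa and Lipa, all lysosomal hydrolases, had log2 differences of -2.84, -2.06, -1.76 and -2.31, with SE of 0.163 to 0.231 and q of at most 4.7e-05. Unc93b1 (-2.01 ± 0.197), which escorts nucleic acid-sensing Toll-like receptors, Ftl1 (-1.88 ± 0.186), the ferritin light chain, Itgb5 (-2.20 ± 0.183), an integrin subunit, and Rab7b (-2.83 ± 0.28), a GTPase of late endosomes, were also among the 12. Rab7b stood at 55.7, 59.0 and 29.6 CPM in naive OL and 52.5, 40.9 and 46.1 CPM on dpi 10, with total RNA at 4.69 to 8.25 and then 41.1 to 51.8 CPM. It was a strongly OL-enriched transcript in naive cord, with a log2 ratio of 2.84, and stood at a ratio of 0.00 on dpi 10.

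A list of 55 lysosomal hydrolases and proton pump subunits was drawn up after values had been seen and is a description. Of its genes, 17 lost OL share, none gained, 26 had lower and 5 higher OL share at q under 0.05, and the median was -0.70. The sum of the list was 15310 to 16290 CPM in naive OL and 17640 to 19110 CPM in dpi 10 OL, against 9697 to 10130 and 21300 to 26300 CPM in total RNA. In the same libraries, 25 microglia and macrophage markers summed to 658 to 850 CPM in naive total RNA and to 11190 to 14980 CPM on dpi 10, and to 98.1 to 125 and 749 to 879 CPM in OL, and none was at 0 throughout a group. Tyrobp, an adaptor of microglial and myeloid receptors, went from 10.7 to 14.4 CPM to 279 to 336 CPM in total RNA, and from 0.212 to 0.672 CPM to 12.6 to 15.3 CPM in OL. The part of myeloid RNA in the losses of lysosomal genes was not tested.

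Of the 25 microglia and macrophage markers, 2 lost OL share (8% against 1.32% of all genes) and none gained, with a median of 0.00. One was Gpnmb, a glycoprotein of phagocytes (-3.63 ± 0.718, q = 0.00712, and -2.02 ± 0.422, q = 0.0129, without naive pool 3). Gpnmb stood at 0.756, 0.635 and 4.28 CPM in naive OL and at 93.0, 113 and 83.4 CPM on dpi 10, and at 1.01 to 3.74 and then 1292 to 2071 CPM in total RNA. Its highest naive OL value was that of pool 3. The median log2 ratio of the list was -3.88 in naive and -3.91 on dpi 10.

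The sequences before the transcription start are shown for the first 2 genes by p in each direction that have exactly 1 RefSeq start (GRCm38.p6), and for Ctsa, added for its letters, because lysosomal genes are known to carry E-box-like elements bound by TFEB. Of the 24 genes named for the smallest p, 17 had a RefSeq window at hand, and Fxyd7 and Plvap had none. Each run is the 250 bases before the start, 5′ to 3′ on the strand of the gene, and capitals mark the E-box CACGTG, with TCACGTGA where the longer form is present. They come from chr7:43797327-43797576, chr12:104406458-104406707, chr8:85083019-85083268, chr7:142387828-142388077 and chr2:164833523-164833772, in the order printed.
Klk8: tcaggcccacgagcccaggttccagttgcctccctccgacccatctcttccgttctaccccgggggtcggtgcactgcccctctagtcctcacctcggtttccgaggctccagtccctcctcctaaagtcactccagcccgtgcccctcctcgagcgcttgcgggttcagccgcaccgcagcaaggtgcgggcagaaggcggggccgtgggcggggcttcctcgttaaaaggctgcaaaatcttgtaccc
Serpina3n: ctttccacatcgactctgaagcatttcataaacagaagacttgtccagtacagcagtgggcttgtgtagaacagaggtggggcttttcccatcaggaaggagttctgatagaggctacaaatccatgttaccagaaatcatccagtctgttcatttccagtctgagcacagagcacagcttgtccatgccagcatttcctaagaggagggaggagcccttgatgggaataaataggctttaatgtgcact
Man2b1: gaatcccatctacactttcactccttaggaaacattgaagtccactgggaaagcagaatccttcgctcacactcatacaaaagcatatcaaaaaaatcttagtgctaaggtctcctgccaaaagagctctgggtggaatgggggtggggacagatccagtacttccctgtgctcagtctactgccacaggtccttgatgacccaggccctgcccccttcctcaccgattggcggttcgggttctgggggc
Ctsd: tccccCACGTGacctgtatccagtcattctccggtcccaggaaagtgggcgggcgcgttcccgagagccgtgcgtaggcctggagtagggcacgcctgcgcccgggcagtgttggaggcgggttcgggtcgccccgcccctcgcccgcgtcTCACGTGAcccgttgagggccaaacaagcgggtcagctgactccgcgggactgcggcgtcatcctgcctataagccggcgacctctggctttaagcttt
Ctsa: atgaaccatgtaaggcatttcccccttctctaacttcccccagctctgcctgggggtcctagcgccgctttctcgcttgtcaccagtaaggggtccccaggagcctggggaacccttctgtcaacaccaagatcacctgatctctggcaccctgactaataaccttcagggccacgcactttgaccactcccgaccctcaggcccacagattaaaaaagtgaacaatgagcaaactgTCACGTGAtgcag

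The Ctsd run holds the E-box at positions -245 and -98 from the start, and the Ctsa run at -12, while Klk8, Serpina3n and Man2b1 hold none. Over windows of 250 bases before to 50 after a RefSeq start, counting both strands, CACGTG was in 20 of 252 windows of genes that gained (7.94%), in 26 of 232 of genes that lost (11.2%) and in 1502 of 16649 of all tested genes (9.02%). TCACGTGA, which contains CACGTG, was in 1.19%, 3.02% and 1.48%. The AP-1 letters TGANTCA were in 5.56%, 6.47% and 5.89%, and the CRE letters TGACGTCA in 2.78%, 2.16% and 2.65%. These shares are a description of letters in a window, and windows of 1 gene can overlap. Windows were at hand for 178 of the 236 genes that gained, 185 of the 227 that lost and 13175 of the 17167 tested.

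**Figure D4:**
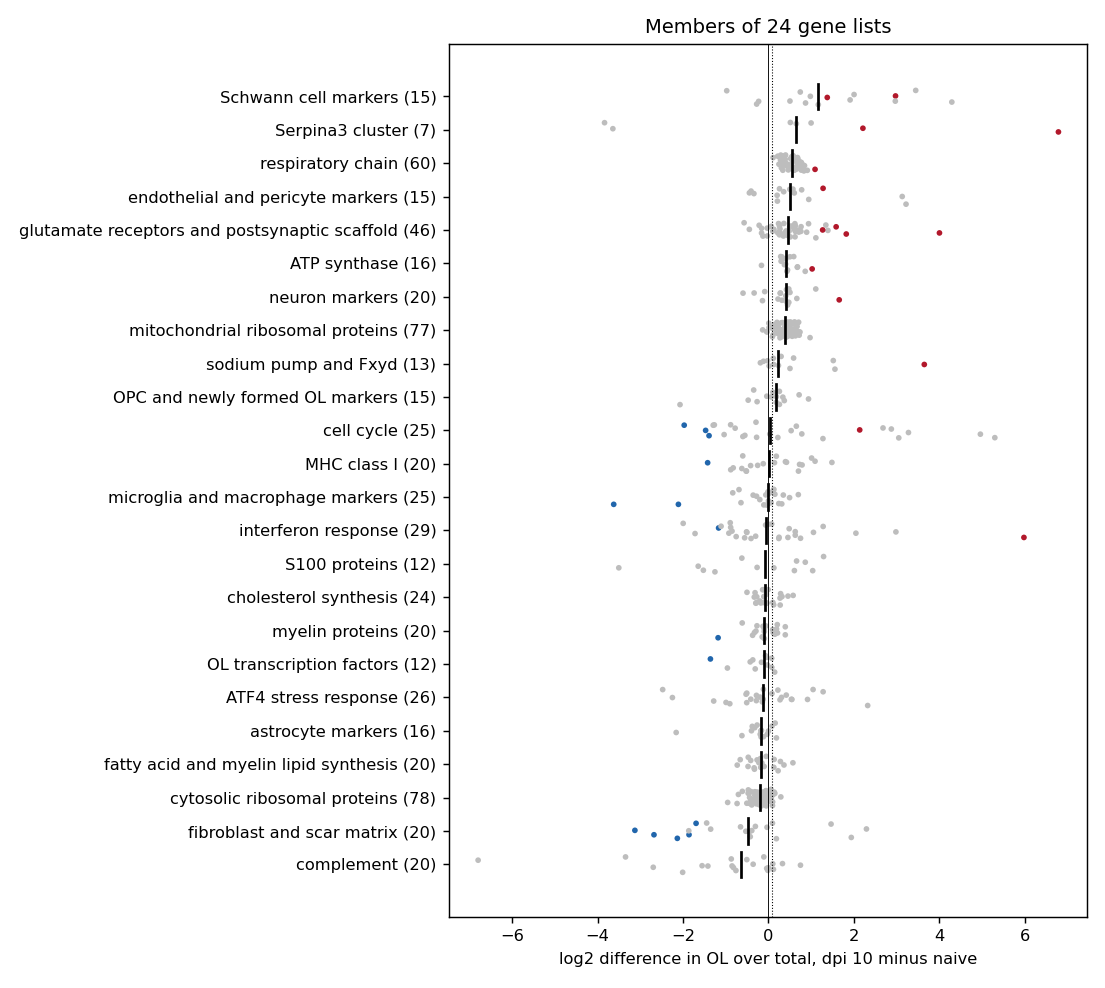
Log2 difference in the OL to total ratio, dpi 10 minus naive, for the members of 24 gene lists, with the number tested in brackets. Each point is a gene, coloured where it gained or lost OL share, the bar is the list's median and the dotted line the median of all genes. All 60 respiratory chain points lie to the right of 0, and Schwann cell markers have the highest median of 1.17.

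Lists of the OL lineage had median differences of -0.10 (myelin proteins), -0.12 (transcription factors) and 0.18 (precursors and newly formed OLs). Of 20 myelin protein genes, Cd9 was the one called (5% lost, against 1.32% of all genes), with a loss of -1.18 ± 0.141 (q = 0.00021). Sirt2 was lower within 1 (-0.61, q = 0.00517). Cd9, a tetraspanin also found on many other cells, stood at 223, 220 and 205 CPM in naive OL and 573, 536 and 501 CPM on dpi 10, and at 64.8 to 84.8 and then 392 to 438 CPM in total RNA. It rose in both fractions, and more in total RNA. The median ratio of the myelin genes was 2.71 in naive and 2.64 on dpi 10. Of 12 OL transcription factors, Tcf7l2 lost (-1.36 ± 0.37, q = 0.0383), which is 8.33% against 1.32% of all genes. None of the 6 fits without 1 pool kept that call. Of 15 markers of OL precursors and newly formed OLs none was called, with Tnr, an extracellular matrix protein, at 0.72 (q = 0.0668) and Bmp4, a growth factor, at -2.07 (q = 0.0819).

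Of 24 cholesterol synthesis genes, 13 fell in OL and 11 in total RNA, with median log2 changes of -1.06 and -0.88, and none gained or lost OL share. The sum of the list was 5772 to 7004 CPM in naive OL and 2980 to 3055 CPM on dpi 10, and 2291 to 2392 and 1137 to 1208 CPM in total RNA. The groups were apart in both fractions. The differences with the smallest p were those of Mvk, mevalonate kinase (0.58 ± 0.209, q = 0.12), and Ggps1, a prenyl diphosphate synthase (0.46 ± 0.206, q = 0.234). Of 20 genes of fatty acid and myelin lipid synthesis none was called, and 3 had lower OL share at q under 0.05 (2.93% of all genes did). These were Elovl1 (-0.73), Cers2 (-0.66) and Elovl5 (-0.48), which make or use very long chain or polyunsaturated acyl chains. They kept q under 0.05 in 4, 3 and 0 of the 6 fits that left out 1 pool.

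Stress and calcium-binding genes gave no calls past 1. None of 26 genes of the ATF4 response was called, with Phgdh, the first enzyme of serine synthesis, at -0.53 (q = 0.028) and Wars, a tRNA synthetase, at 0.42 (q = 0.032). None of 12 tested S100 genes was called past 1, and S100b (0.61 ± 0.113, q = 0.00484) and S100a1 (0.66 ± 0.164, q = 0.0243) were higher within it. Of the 6 fits that left out 1 pool, Phgdh and S100a1 kept q under 0.05 in 1 each and Wars in 0.

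Of 20 genes of MHC class I presentation, 12 rose in OL and 14 in total RNA, and 1 lost OL share (5% against 1.32% of all genes): H2-K1, a class I heavy chain, lost OL share (-1.43 ± 0.305, q = 0.0113), with 29.8, 30.2 and 67.8 CPM in naive OL and 110, 144 and 95.1 CPM on dpi 10. The high naive value was that of pool 3, and without that pool the list's median was 0.83 in place of 0.01 and H2-K1 was within 1, at -0.99. Of 29 interferon response genes, 23 rose in OL and 26 in total RNA. Ifit2 lost OL share (-1.17 ± 0.211, q = 0.00384) and Oasl1 gained it. Each is 3.45% of the list, against 1.32% of all genes that lost and 1.37% that gained. Oasl1 had 0 counts in all 3 naive OL libraries and 79, 54 and 40 on dpi 10. Its pool ratios overlapped, and it kept q under 0.05 in 2 of 17 alternative fits. Of 20 tested complement genes, 10 rose in OL and 13 in total RNA. None was called in OL share, with a median difference of -0.63, or -0.29 without naive pool 3. Cd59a, an inhibitor of complement lysis, was at 0.75 (q = 0.0284), and Cr1l was at -0.76 (q = 0.029). Each kept q under 0.05 in 1 of the 6 fits that left out 1 pool. The study proposes that some microglia and macrophage transcripts in OL libraries after injury are contamination from those cells. Of 25 markers of these cells, 23 rose in OL RNA and 24 in total RNA. The part of such carried-over RNA in the OL rises of immune genes was not tested.

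Schwann cell markers had the highest median of the lists, 1.17. The sum of the 15 markers was 802, 820 and 1437 CPM in naive OL and 2974, 2026 and 2046 CPM on dpi 10, which did not overlap, and Gdnf was at 0 in naive OL. Of the 15, Egfl8, a secreted EGF-like protein (2.98 ± 0.665, q = 0.0143), and Ncmap, a protein of non-compact myelin (1.38 ± 0.392, q = 0.0471), gained (13.3% against 1.37% of all genes). Egfl8 kept q under 0.05 in 2 and Ncmap in 1 of the 6 fits that left out 1 pool. The study had already pointed to an apparent OL enrichment and rise of Egfl8 and Gdnf in these data. Both are in the list, so its share and median are a description. Egfl8 stood at 0.294, 0.0846 and 1.99 CPM in naive OL and 29.4, 21.6 and 23.3 CPM on dpi 10. Without naive pool 3 the list's median was 2.24 and 7 members gained, and without naive pool 1, pool 2 or dpi 10 pool 2 none did. The part of Schwann cell ribosomes in the gains of other genes was not tested.

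Of 20 fibroblast and scar matrix genes, 5 lost OL share (25% against 1.32% of all genes) and none gained. They encode collagens and a matrix protease: Col1a2 (-1.86 ± 0.251, q = 0.00044), Col6a2 (-3.13 ± 0.44, q = 0.00058), Col6a3 (-2.68 ± 0.409, q = 0.0012), Mmp2 (-2.13 ± 0.391, q = 0.00419) and Col5a2 (-1.70 ± 0.413, q = 0.022). Col5a2 kept q under 0.05 in 1 of the 6 fits that left out 1 pool, and the other 4 genes in all 6. Col1a2 stood at 55.8, 46.1 and 71.5 CPM in naive OL and 300, 278 and 230 CPM on dpi 10, and at 33.2 to 42.0 and then 587 to 674 CPM in total RNA. It rose in both fractions, with no overlap in either. The median of the list was -0.49 with naive pool 3 and 0.09 without it. The sum of the 20 genes was 653 to 3761 CPM in naive OL and 2179 to 3062 CPM on dpi 10, and 1584 to 1882 and 5143 to 5668 CPM in total RNA.

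None of 16 astrocyte markers was called. Their sum in OL libraries spanned 3276 to 20400 CPM in naive and 3611 to 9680 CPM on dpi 10, and in total RNA 10600 to 12170 and 11160 to 11710 CPM, so the OL groups overlapped through naive pool 3. The median difference was -0.17 with naive pool 3 and 0.75 without it, and the difference with the smallest p was that of the glutamate transporter Slc1a3 (-0.62 ± 0.418, q = 0.5).

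Of 25 cell cycle genes, Mcm3 (-1.97 ± 0.295, q = 0.00102), Mcm5 (-1.39 ± 0.295, q = 0.0106) and Tpx2 (-1.47 ± 0.395, q = 0.0357) lost OL share (12% against 1.32% of all genes) and Ccne1 (2.14 ± 0.535, q = 0.0255) gained it (4% against 1.37%). Mcm3 and Mcm5 are subunits of the replicative helicase. Mcm3 stood at 12.9, 12.8 and 13.2 CPM in naive OL and 14.2, 14.2 and 16.1 CPM on dpi 10, with total RNA at 3.08 to 3.84 and then 13.3 to 17.2 CPM. Its naive OL enrichment of 1.94 was at -0.04 on dpi 10. Mcm5 kept q under 0.05 in 5, and Tpx2 and Ccne1 kept q under 0.05 in 1 each of the 6 fits that left out 1 pool.

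**Figure D5:**
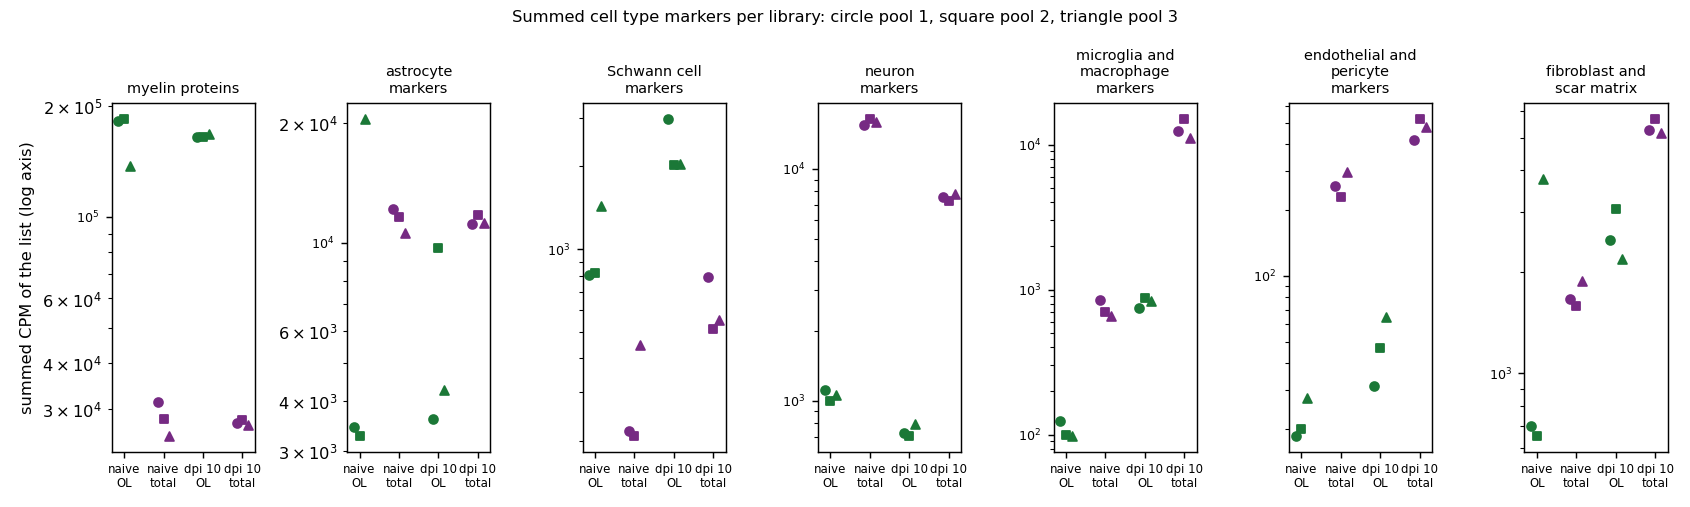
Summed CPM of marker lists on a log axis in each of the 12 libraries, with OL and total RNA in separate columns and pools 1 to 3 as circle, square and triangle. Naive OL pool 3 lies above the other naive OL pools for astrocyte, Schwann cell and fibroblast lists, and microglia and macrophage markers are higher on dpi 10 in both fractions.

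Some genes moved in OL RNA downward or in total RNA by a large amount. Among genes that lost OL share and fell in OL RNA, Chrna7, a nicotinic receptor subunit, had 19, 18 and 19 counts in naive OL and 0 in each dpi 10 OL library, against 379 to 551 and 182 to 255 counts in total RNA. Its q of 0.0464 was lost in all 6 fits that left out 1 pool, and its ratios overlapped in the pools. Efemp1, an extracellular matrix protein, stood at 32.6, 36.0 and 18.8 CPM in naive OL and 14.3, 11.2 and 17.3 CPM on dpi 10, while total RNA went from 3.74 to 5.18 CPM to 20.8 to 28.2 CPM. It was the one gene that fell in OL and rose in total RNA (difference -3.39 ± 0.384, q = 0.000128). Ptpn13, a tyrosine phosphatase, lost 1.53 on the log2 scale (-1.53 ± 0.283, q = 0.00447), with 33.6 to 62.2 and then 18.3 to 29.7 CPM in OL.

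Among genes whose total RNA rose, Sp100, a component of nuclear bodies, gained OL share (3.74 ± 0.828, q = 0.0134) from 1, 1 and 0 counts in naive OL to 55, 90 and 133 counts on dpi 10, with 69 to 91 and then 490 to 980 counts in total RNA. Prg4, the lubricin gene, lost it (-3.68 ± 0.841, q = 0.016), with total RNA at 0.131 to 0.317 and then 17.7 to 31.4 CPM. Sp100 kept q under 0.05 in 4 and Prg4 in 3 of the 6 fits that left out 1 pool. The pool ratios of Sp100 (CPM plus 0.5) overlapped, at -2.35, -2.66 and -2.72 in naive and -2.51, -2.87 and -2.07 on dpi 10. Among genes whose total RNA fell, Strip2 gained 3.23 ± 0.488 (q = 0.00108) and Kank4 gained 2.13 ± 0.474 (q = 0.014), a call kept in 3 of the 6 fits that left out 1 pool. In all, 8 of the genes that gained had at most 3 counts in each naive OL library, and their fitted folds are no bounds.

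Differences between dpi 10 and the other injury times were tested in the same fit. The dpi 2 comparison had 73 genes higher (0.425%) and 39 lower (0.227%) on dpi 10, and the naive libraries cancel from it. Without dpi 2 pool 2, whose Y-linked counts went against its label, 45 were higher and 29 lower, and 53 of the 112 calls made with it were kept. This comparison and the one against naive share the dpi 10 libraries, so values are set side by side and no overlap is drawn from them. Tmem150c, a membrane protein, was at 1.22 against dpi 2 (q = 0.0081) and 1.24 against naive, and Atl1, a GTPase that shapes the endoplasmic reticulum, at 1.02 (q = 0.0111) and 1.01. Mcm5 was at 1.65 against dpi 2 (q = 0.00928) and -1.39 against naive. Ctsd was at -1.25 against dpi 2 (q = 0.00187) and -2.92 against naive, Hexa at -1.10 (q = 0.00285) and -2.06, and Col1a2 at -1.36 (q = 0.0114) and -1.86.

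Against dpi 42, edgeR called 0 genes higher and 0 lower (0% each), with 1851 genes at an unadjusted p under 0.05 and a smallest q of 0.0694. DESeq2 called 72 higher and 22 lower. The pools of dpi 42 entered without pairing, because their labels conflict on which OL and total libraries belong together.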

How the data were processed

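Polysomal RNA of spinal cord tissue was measured by RNA-seq. The authors used STAR for alignment to the mouse genome (mm10 per the labels) and HTSeq 0.10.0 for counting per gene, and deposited raw read counts, without normalization, in 1 table of 21965 genes by 24 libraries (read quality: FastQC 0.10.1). All columns were matched to samples. Symbols and positions are from GENCODE M21 (GRCm38).

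Counts were fitted in R 4.3.3 with edgeR 4.0.16 (glmQLFit, glmQLFTest), using all 24 libraries, TMM scaling and a minimum summed count of 10 per gene (17167 genes, of which 13 have no symbol). The model held a term for each tissue pool of naive, dpi 2 and dpi 10, an OL term for each of these groups, and group means for dpi 42 (10 residual degrees of freedom). The pairing comes from the study's methods, in which OL and total RNA of a number share a lysate. Over genes, the departures of an OL library and a total library from the means of their groups correlated with r = 0.142, 0.109 and 0.187 for the same naive pool (at most 0.0689 for other pools) and 0.118, 0.0513 and 0.0747 for the same dpi 10 pool (at most 0.00766). OL change and total change came from a fit of 8 group means. Genes were called at q under 0.05 and a log2 value past 1, or past 0.5 for OL enrichment within a group. SE is the absolute log2 value over the root of F. CPM are TMM-scaled, and pool ratios use CPM plus 0.5. The pools are separate tissue. In the paired fit, p-values measure the spread of OL to total ratios between pools of a group, over naive, dpi 2 and dpi 10. The spread between unpaired dpi 42 libraries enters the same estimate. Precision follows from 27135366 to 31954139 counts per library, and 3 counts were taken as the floor.

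Named genes were the 12 gaining and 12 losing genes with the smallest p among called genes whose pool ratios did not overlap, the called members of 24 lists (or those with the smallest p), the 3 genes with the largest difference in each class of OL or total change at a mean of at least 5 CPM, and the 3 called genes with the smallest p in each direction against another time. Members, lists and tests were chosen with earlier results of these data known, and 2 lists were added after their values were seen. A few genes that meet this rule are not reported here. Scripts were tested on simulated data. Alternatives were other scalings, filters, models, left-out pools and a length and GC offset, and the Wald test of DESeq2 1.42.0.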

Additional observations from a re-analysis of the deposited data

Results flagged for a closer look

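The difference between dpi 10 and dpi 2 in OL share was tested directly, and 6 genes are given here (edgeR's quasi-likelihood test with Benjamini-Hochberg adjustment, n = 3 pools per group). They are the 3 genes in each direction with the smallest p among those called against naive, a comparison that shares the dpi 10 libraries. Tmem150c, a membrane protein, was higher on dpi 10 than on dpi 2 by 1.22 (q = 0.0081), Mcm5, a helicase subunit, by 1.65 (q = 0.00928) and Atl1, a GTPase that shapes the endoplasmic reticulum, by 1.02 (q = 0.0111), all as log2 differences. Against naive, Tmem150c stood at 1.24 and Atl1 at 1.01, and Mcm5 at -1.39. The lysosomal enzymes Ctsd (-1.25, q = 0.00187) and Hexa (-1.10, q = 0.00285) and the collagen gene Col1a2 (-1.36, q = 0.0114) were lower on dpi 10 than on dpi 2. Against naive these 3 stood at -2.92, -2.06 and -1.86. Of the 112 genes called against dpi 2, 53 were still called without dpi 2 pool 2, whose Y-linked counts went against its label. Without dpi 10 pool 1, 2 or 3, 42, 47 and 47 were still called. Which of the 6 genes were kept in those fits was not examined.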

How the results depend on the processing

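All 24 genes named for the smallest p kept q under 0.05 in all 18 alternatives. They were chosen for small p in the same libraries, so this largely restates the choice. Among 113 named genes, not all with q under 0.05 at first, 17 to 27 lost it with 1 naive or dpi 10 pool left out. With TMM factors set against a total RNA library, 112 genes gained and 438 lost OL share. Leaving out 1 pool gave 140 to 265 genes that gained and 147 to 232 that lost, lowest without naive pool 2 (140) and dpi 10 pool 2 (147). With 1 naive or dpi 10 pool left out, 129 to 158 of the 236 gains and 141 to 170 of the 227 losses were still called. Without the replicate block, which pairs OL and total RNA of a pool, 254 gained and 245 lost. With library sizes alone, 1976 genes were enriched in naive OLs, 1527 enriched and 7127 depleted on dpi 10, a share of higher calls of 22.2% and 17.6% against 43.1% and 44.6%. The length and GC offset moved these shares to 56.5% and 58.5%. With library sizes alone 144 genes fell in OL and 195 in total RNA, where 90.3% of calls were rises against 75.0%. With the replicate number as a replicate block across groups, 474 genes rose and 73 fell in OL RNA, and 2324 rose and 522 fell in total RNA. The numbers share only a number there: deviations of naive and dpi 10 libraries of 1 number correlated with r = 0.215, -0.357 and -0.144 in OL. OL rises ranged from 867 to 1352 and total rises from 1339 to 1441 with 1 pool left out. Against dpi 2, 110 genes were higher and 54 lower without the replicate block, 179 and 107 with DESeq2, 23 to 74 and 21 to 47 with 1 pool left out, 45 higher without dpi 2 pool 2, and 23, 31 and 29 higher without dpi 10 pool 1, 2 or 3. Against dpi 42, 8 were higher and 1 lower without the block, 72 and 22 with DESeq2, 1 higher with dpi 42 paired by tissue number, and 0 to 3 higher with 1 pool left out (3 without naive pool 3). Without naive pool 3 the astrocyte genes Gjb6 and Sox9 turned from -0.40 and -0.38 to 0.58 and 0.62, and reached -1.01 and -1.04 without naive pool 1 and 2, with no call. The causes were not tested.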
